A study of Drosophila melanogaster with 28 samples.

Results

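The genes described here, called female germline genes after the study's list, are those that could be measured in every comparison of the sex hierarchy experiment. They come from the study's list of genes tied to the presence of a female germline during metamorphosis. By the paper's account, that list cannot separate genes expressed in the germline from somatic genes that depend on it. That list was built on other arrays, a time course of wild type animals and *tud* progeny against a common reference, from genes higher in wild type females than in wild type males and higher in wild type females than in female *tud* progeny at some stage. The list has 350 elements on the array, none of which is also in the list of male germline genes. One was left out by name, and 143 lacked values on at least 3 of 4 arrays in at least 1 of the 7 comparisons. The remaining 206 elements, for 204 genes, are described. They are 206 of 15744 array elements, and 3187 of all elements meet the same requirement on values. The loss of list elements was smallest in CS, where 17 had too few values, and greatest in the *tra* comparison, where 81 did, so these are the list genes with the more readily detected transcripts. The requirement covered the *tud* arrays, so all 206 elements were also detected in animals without a germline.

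RNA came from whole pupae at 48 hour APF (after puparium formation), about 30 pupae per RNA, and each array compared RNA of 2 genotypes directly. There were 7 comparisons with 4 arrays each. Females were compared with males in the wild type strains CS (Canton S) and Berlin and in *tud* progeny, offspring lacking germline tissue in both sexes, from *tud*1 *bw*1 *sp*1 mothers and *y*, *w* fathers with *P*[w+cM UBI-GFP] together with ID-1 *P*[FRT(w hs)]101. CS females were compared with 3 kinds of chromosomally XX mutant. The *tra* pseudomales were *tra*1/Df(3L)st-j7, the *dsxD* pseudomales were *dsxD*, *Sb*1, *e*1 over *dsx*M+R15, and the XX *dsx* nulls were *dsx*D+R3/*dsx*M+R15. All 3 carried the paternal UBI-GFP X chromosome, which the CS females did not. Female *tud* progeny carried this paternal X and male *tud* progeny did not, so that in the *tud* sex difference, and in its comparison with the wild type, the chromosome cannot be told apart from sex. CS males were compared with XY *dsx* nulls of the same *dsx* alleles, whose genotype does not include the UBI-GFP X chromosome. The mutant genotypes name no CS background, so in all mutant comparisons strain background cannot be told apart from the mutation. In every comparison the female or wild type RNA was in Cy5 on replicates 1 and 2 and the other RNA on replicates 3 and 4. Values are log2 ratios of the first named genotype over the second, so that a positive value is female over male, CS female over XX mutant, or CS male over XY mutant. The descriptions of *tud* replicates 2 and 4 contradict themselves on the sex of the second channel, and the source name was followed.

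The female germline of the fly forms the germline stem cells, the nurse cells and the oocyte, which loads RNA and protein for the embryo. Ovaries take shape during metamorphosis, and most late steps of oogenesis follow in the adult. Many genes used by nurse cells and oocytes are also used in somatic tissue, and *tra* and *dsx* act in the sex hierarchy that sets somatic sex, with *dsx* giving a male and a female protein from one transcript. In whole pupae a change in the number of cells of a type and a change of RNA per cell cannot be told apart.

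A single array held values for 4783 to 12023 elements and for 159 to 206 of the 206 described here, and 66 of them had a value on all 28 arrays. The study's list of male germline genes was set beside these. Its median log2 ratio was -1.52 in the wild type sex difference (644 elements) and -0.04 in *tud* progeny (347 elements). That list was chosen on the time course arrays, mostly for higher levels in wild type males than in wild type females and in male *tud* progeny. These 2 medians are therefore not independent of the choice. A median near 0 shows similar levels in both RNAs and not that male germline RNA was absent. For the female germline, of the 10 markers chosen (*vas*, *nos*, *aub*, *piwi*, *zpg*, *osk*, *orb*, *bcd*, *grk* and *yl*) an element could be named only for *yl*, the yolk protein receptor of the oocyte. Names came only from the study's gene lists, which covered 2344 of 15744 elements. The other markers may be on the array without a name here, and *yl* is itself in one of these lists. The log2 ratios of *yl* were from 0.04 to 0.73 on the 4 CS arrays and 0.60 and 0.77 on 2 Berlin arrays. It had no value on any *tud* array, but also none on any *tra* or XX *dsx* null array, which carried CS female RNA. Its missing values in *tud* progeny therefore do not show a loss of germline RNA. Arrays of one comparison differed in how well they repeated each other for the female germline genes. Between the means of the 2 dye orientations the correlation across the 206 elements was 0.82 in XY *dsx* nulls, 0.79 in XX *dsx* nulls, 0.73 in *dsxD* pseudomales, 0.52 in *tud* progeny, 0.41 in Berlin, 0.23 in *tra* pseudomales and 0.01 in CS. The same value over the 3187 elements measured throughout was 0.40 in CS and 0.38 in *tra* pseudomales. Of the arrays, CS replicates 3 and 4 had the weakest match of signs with the study's sex-differential gene lists, at 58% and 69.3% of elements, against 75% or more on all others. The labels do not say whether the 4 arrays of a comparison came from separate collections of pupae, so q values measure the spread between arrays.

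On 1 array *roX1* went against the label. *roX1*, an RNA of male dosage compensation that is abundant in XY animals, had log2 ratios between -9.01 and -3.96 on the CS, Berlin and *tud* arrays, where females were compared with males. On the *tra*, *dsxD* and XY *dsx* null arrays, where both RNAs came from animals with the same sex chromosomes, it lay between -0.46 and 0.36. On the array labelled XX *dsx* null replicate 4 it was -4.41, against -0.23 on replicate 3 and no value on replicates 1 and 2. The testis tubulin gene *betaTub85D* was -4.37 on replicate 4 and had no value on the other 3 arrays. That is lower than on any array of wild type females against males, where it lay between -2.82 and -2.18 in CS and between -1.06 and 0.31 in Berlin. The other male germline marker with a named element, *Mst98Ca*, had no value on any XX *dsx* null array. It was between -6.55 and -6.08 in CS and between -7.15 and -4.47 in Berlin. The median of the male germline list on replicate 4 was -0.08 (305 elements), beside -0.03, 0.01 and 0 on the others. On the CS and Berlin arrays, with males in the comparison, it lay between -1.78 and -1.26. Across the female germline genes replicate 4 had correlations of 0.60, 0.81 and 0.82 with replicates 1, 2 and 3. What this array holds was not tested, and the counts of the XX *dsx* null results are given with and without it.

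In wild type pupae the female germline genes were slightly higher in females, as were other genes measured throughout. The median of the 206 mean log2 ratios over the 8 CS and Berlin arrays was 0.16, with 162 of 206 above 0, and the median over the 3187 elements measured throughout was 0.12. At a *q* value below 0.15, which is the threshold used throughout and is referred to as called, 105 (51%) were called higher in females and 17 (8.25%) lower. Over all 9901 elements tested, 46.2% were called higher and 26.9% lower, so the share called higher was close to that of all elements. Among elements measured throughout, 49.3% were called higher and 19.7% lower. The threshold was permissive here, since calls reached an unadjusted p of 0.328. With Benjamini-Hochberg adjustment 55 were called higher and 6 lower, and 53 had an unadjusted p below 0.05. The time course list was itself chosen for higher transcript levels in wild type females, and whether RNA was shared with it is not stated, so these counts are not independent evidence of the direction.

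**Figure D1:**
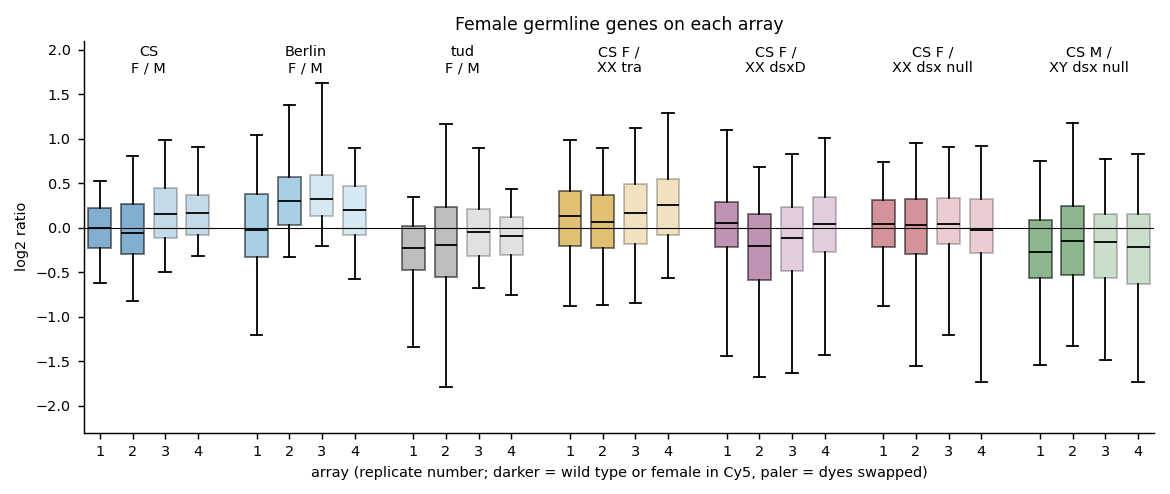
Log2 ratios of the 206 female germline elements on each of the 28 arrays (line, median; box, quartiles; whiskers, 5th to 95th percentile), grouped by comparison, with darker boxes for arrays with the wild type or female RNA in Cy5. Array medians lie between -0.06 and 0.16 in CS, between -0.03 and 0.33 in Berlin, between -0.23 and -0.05 in *tud* progeny and between -0.28 and -0.15 in XY *dsx* nulls.

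Of single genes, *alpha-Man-Ia*, a class I mannosidase of glycoprotein trimming on the X chromosome, had the largest called difference with 1 sign on all arrays. Its log2 ratio was 0.85, 0.42, 1.13 and 1.13 on the CS arrays in order of replicate and 1.10, 0.60 and 1.68 on Berlin replicates 2 to 4, a mean of 0.99 ± 0.15 (SE, n = 7 arrays, *q* = 0.000284) or 1.98-fold higher in females. *CG9686* (0.68 ± 0.13, SE, n = 8, *q* = 0.000877) and *Bbd* (*CG18067*, 0.55 ± 0.10, SE, n = 8, *q* = 0.000696) followed, with all 8 arrays above 0. Only 2 called genes were lower in females on all 8 arrays. These were *nyo* (-0.45 ± 0.14, SE, *q* = 0.0131), which encodes a zona pellucida domain protein of the apical matrix, and *CG16721* (-0.32 ± 0.10, SE, *q* = 0.0128).

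The sex difference was also set out for each strain. The median of the female germline genes was 0.06 in CS, with array medians between -0.06 and 0.16, and 0.25 in Berlin, with array medians of -0.03, 0.30, 0.33 and 0.19. The array medians of the strains overlapped. All elements were shifted the same way on Berlin arrays, with array medians between 0.06 and 0.18. The median of the differences between the strains was -0.15 for the female germline genes, and -0.03 after each array was centered on its median. As a test of the difference itself, 2 of 206 were called lower in CS and none higher, against 2.32% and 1.07% of all 8153 elements, and 17 had an unadjusted p below 0.05. The 2 were *CG12998* and *CG10570*. *CG12998* was between -0.63 and -0.20 on the CS arrays and 0.38, 1.56, 2.17 and 0.06 on the Berlin arrays. *CG10570* was between -0.97 and 0.14 in CS and between 0.47 and 1.44 in Berlin. Neither was called with Benjamini-Hochberg adjustment, with centered arrays or with replicate number as a block. Leaving out CS replicates 1, 2 or 4 or Berlin replicate 2 left none called lower, whereas leaving out Berlin replicate 1 gave 13, Berlin replicates 3 or 4 gave 4 and 5, and CS replicate 3 gave 4; without Berlin replicate 3, 2 were called higher.

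In *tud* progeny, without a germline, the female germline genes were lower in females than in males more often than other genes were. The median log2 ratio was -0.12, with 75 of 206 above 0, and the array medians of -0.23, -0.19, -0.05 and -0.09 were all below 0. The median over elements measured throughout was -0.02. Lower in females were 38 (18.4%), against 7.5% of all 7851 elements tested, and higher in females were 9 (4.37%), against 7.68%. Over elements measured throughout, 9.54% were called lower and 9.76% higher. The list was chosen on other arrays for a higher level in wild type than *tud* females, which can favor genes low in *tud* females. The direction is therefore not independent of the choice. Array choice mattered for these counts. Without *tud* replicate 1 there were 8 lower and 3 higher, without replicate 2 there were 25 and 3, and without replicate 3 there were 22 and 2. An unmoderated *t*-test with the same threshold called none, although 57 had an unadjusted p below 0.05 in the moderated test, and a dye term gave 91 lower and 31 higher.

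Genes lower in *tud* females included 4 of 5 zona pellucida domain genes, given with their group further on. *CG18735*, named by its size of change, had log2 ratios of -1.71, -2.48, -1.28 and -0.83, a mean of -1.58 ± 0.26 (SE, n = 4 arrays, *q* = 0.0296). *CG4844*, now annotated as *nw*, had -1.91, -2.60, -0.66 and -0.99 (mean -1.54 ± 0.31, SE, *q* = 0.0461). *ImpE1*, an ecdysone-inducible gene of imaginal discs, had -1.63, -3.06, -1.16 and -0.15 (mean -1.50 ± 0.42, SE, *q* = 0.0894). All 3 were below 0 on all 4 arrays, but the size varied widely, and *ImpE1* was not called without *tud* replicate 1 or 3 and *nw* not without replicate 1. Among genes higher in *tud* females, *Ldh*, the lactate dehydrogenase gene, had 0.42, 1.43, 0.99 and 0.68 (mean 0.88 ± 0.18, SE, *q* = 0.0446). *alpha-Man-Ia* was 1.05, 1.10, 0.29 and 0.90 (mean 0.83 ± 0.16, SE, *q* = 0.0412), close to its wild type value. *ITP*, which encodes the neuropeptide ion transport peptide, was 0.29, 0.60, 0.94 and 0.39 (mean 0.56 ± 0.14, SE, *q* = 0.0686), a call lost without *tud* replicates 2 or 3.

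The sex difference of the wild type was then set against that of *tud* progeny, which share no RNA by their labels. The female germline genes were higher relative to males in the wild type, by a median of 0.30 in the log2 ratio, with 170 of 206 above 0, where the median over elements measured throughout was 0.12. Called higher in the wild type were 76 (36.9%), against 20% of all 7192 elements, and 1 (0.485%) was called lower, against 11.2%. Among elements measured throughout, 21% were called higher and 11% lower. The list was chosen on other arrays for a higher level in wild type than *tud* females, so the direction is not independent of the choice. The count rested on some of the arrays. It was 42 without *tud* replicate 1, 47 without *tud* replicate 2, 43 with each array centered on its median, 44 with CS and 104 with Berlin as the only wild type. With replicate number as a block it was 93. The 1 gene called lower, *CG12998*, had *tud* values of 0.67, 4.24, 2.41 and -0.37. The count of genes called lower was 0 without CS replicates 1 or 3, Berlin replicate 4 or *tud* replicates 2 or 3, and it was 3, 2 and 2 without Berlin replicates 1, 2 and 3.

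**Figure D2:**
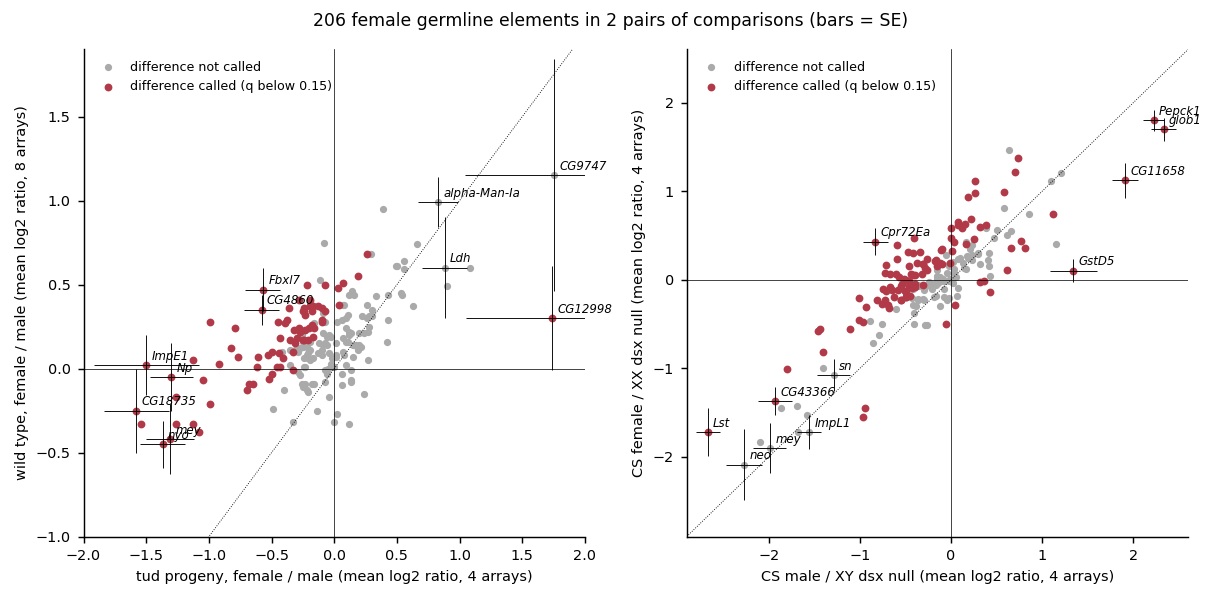
Mean log2 ratios of the 206 female germline elements in wild type against *tud* progeny (left) and in XX against XY *dsx* nulls (right), with SE bars for labeled genes, a dotted line of equal values, and elements in red where the difference between the 2 comparisons was called. On the left 170 of 206 lie above the line, and on the right 160 do.

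The most different genes with every wild type array above every *tud* array were *Fbxl7*, *Cad87A* and *CG4860*. *Fbxl7*, for an F-box protein, was between 0.09 and 1.12 on 7 wild type arrays and -0.74, -0.61 and -0.34 on 3 *tud* arrays, a difference of 1.04 ± 0.22 (SE, *q* = 0.00654). *Cad87A*, a cadherin gene, was between -0.43 and 0.58 in wild type and between -1.13 and -0.57 in *tud* progeny (difference 0.94 ± 0.20, SE, *q* = 0.00563). *CG4860* was between 0.08 and 0.69 in wild type and between -0.98 and -0.26 in *tud* progeny (difference 0.94 ± 0.16, SE, *q* = 0.00156). For *CG4860* the sign itself differed, with 8 of 8 wild type arrays above 0 and 4 of 4 *tud* arrays below. Across the 206 elements the wild type and *tud* means had a Pearson's correlation of 0.61 and a Spearman's correlation of 0.49, which describes genes and not replicates, and Pearson's was 0.48 over the 3187 elements. All 9 elements called higher in *tud* females were also called higher in wild type females (8.6% of the latter), and 8 elements were called lower in both, 47.1% of those lower in wild type and 21.1% of those lower in *tud* females.

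Relative to XX *tra* pseudomales, female germline genes were higher in CS females more often than other genes. The median log2 ratio was 0.15, with 137 of 206 above 0 and array medians of 0.13, 0.06, 0.17 and 0.26, against a median of 0.05 over elements measured throughout. Called higher in CS females were 53 (25.7%), against 13.3% of all 7587 elements, and 10 (4.85%) were called lower, against 11.5%. Over elements measured throughout, 17.9% were called higher and 10.7% lower. The list was chosen on other arrays for higher levels in wild type females, so this direction may not be independent of the choice. Without *tra* replicate 4 the counts were 15 and 6, and without replicate 3 the count called higher was 34. The 2 dye orientations repeated each other poorly here (119 of 206 elements had 1 sign in both), and a dye term gave 95 higher and 37 lower.

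*glob1*, a globin gene, led these differences with 2.18, 2.12, 1.82 and 2.77 on the 4 arrays (mean 2.22 ± 0.18, SE, *q* = 0.000609), which is 4.67-fold higher in CS females. *aay*, for phosphoserine phosphatase, the last step of serine synthesis, was 1.46, 1.80 and 2.26 on 3 arrays (mean 1.84 ± 0.20, SE, *q* = 0.00411). In the *dsxD* and XX *dsx* null comparisons its values lay between -0.28 and 0.37, and it was called in neither. *CG9747* had 0.04, 2.53 and 2.56 (mean 1.71 ± 0.49, SE, *q* = 0.064) and lost its call without replicate 3 or 4. Lower in CS females than in *tra* pseudomales were *Gs2*, a glutamine synthetase gene (-1.49, -1.24, -0.76 and -1.16, mean -1.17 ± 0.16, SE, *q* = 0.00592), *Osbp*, for an oxysterol binding protein (-1.75, -0.87, -0.32 and -0.68, mean -0.91 ± 0.23, SE, *q* = 0.0403), and *CG14567* (-0.83, -0.48, -1.02 and -1.21, mean -0.89 ± 0.16, SE, *q* = 0.0144).

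The comparison of CS females with XX *dsxD* pseudomales had calls in both directions. Higher in CS females were 23 (11.2%), against 12.9% of all 8335 elements, and lower were 41 (19.9%), against 13.4%. Over elements measured throughout, 14.2% were called higher and 15.3% lower. The median was -0.06, with array medians of 0.05, -0.21, -0.11 and 0.04 on both sides of 0, and it was 0.02 without *dsxD* replicate 2. Without *dsxD* replicate 1 there were 14 called higher. The largest differences were lower in CS females, and 18 elements were below -1 against 1 above 1. *neo*, a zona pellucida domain gene, had log2 ratios of -2.40, -2.32, -3.39 and -2.74 (mean -2.71 ± 0.20, SE, *q* = 7.9e-05), which is 6.56-fold lower in CS females than in *dsxD* pseudomales. *mey*, of the same family, had -2.40, -1.77, -2.53 and -2.35 (mean -2.26 ± 0.17, SE, *q* = 8.1e-05). *CG18735* had -2.22, -1.35, -2.92 and -2.22 (mean -2.18 ± 0.24, SE, *q* = 0.000426). In the other direction *glob1* was 1.80, 2.26, 2.24 and 2.15 (mean 2.11 ± 0.15, SE, *q* = 6.9e-05). *MFS12*, a transporter gene of the major facilitator family, was 1.10, 0.97, 0.95 and 0.93 (mean 0.99 ± 0.14, SE, *q* = 0.00158), and *Pepck1*, for the key enzyme of gluconeogenesis, was 1.79, 0.66, 0.02 and 1.44 (mean 0.98 ± 0.28, SE, *q* = 0.0355).

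Relative to XX *dsx* nulls, genes were called in both directions. Called higher in CS females were 61 (29.6%) and lower 47 (22.8%), each against 20.2% of all 6867 elements, and the median was 0.01. Over elements measured throughout, 21.8% were called higher and 22% lower. Without the array labelled replicate 4, whose *roX1* value goes against its label, there were 51 higher and 33 lower, with a median of 0.02. Most differences were small, with 153 of 206 means within 0.5 of 0. *Pepck1* was highest in CS females relative to the mutant, at 1.76, 1.87, 1.48 and 2.08 (mean 1.80 ± 0.12, SE, *q* = 0.000161), followed by *glob1* at 1.32, 2.00, 1.79 and 1.70 (mean 1.70 ± 0.13, SE, *q* = 0.000252). *CG12998* had 0.63, 1.75 and 1.99 on 3 arrays (mean 1.46 ± 0.27, SE, *q* = 0.0106). Lowest were *neo* at -0.91, -3.65, -1.64 and -2.15 (mean -2.09 ± 0.40, SE, *q* = 0.008), *mey* at -1.09, -2.82, -1.40 and -2.29 (mean -1.90 ± 0.28, SE, *q* = 0.00298) and *CG18735* at -0.97, -2.75, -1.63 and -1.96 (mean -1.83 ± 0.26, SE, *q* = 0.00272). For these 3 genes replicate 2 was the lowest and replicate 1 the highest array, and all 4 arrays were below 0. Without replicate 4 the 6 genes remained called, at 1.70 for *Pepck1* and *glob1*, 1.19 for *CG12998*, -2.07 for *neo*, -1.77 for *mey* and -1.78 for *CG18735*.

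CS males against XY *dsx* nulls gave the most calls among these genes. Of the 206, 117 (56.8%) were called lower in CS males, against 46.7% of all 8583 elements, and 53 (25.7%) higher, against 34.2%. Over elements measured throughout, 54.9% were called lower and 26.1% higher. The array medians of -0.28, -0.15, -0.16 and -0.22 were all below 0. The median of -0.19 was near the -0.17 over elements measured throughout, and the medians of all elements on these arrays were below 0 too, between -0.15 and -0.04. After centering of the arrays the median of the female germline genes was -0.11. Calls reached an unadjusted p of 0.402, and 106 had one below 0.05. The male germline list moved the other way, with a median of 0.84 (665 elements). *Lst*, which encodes the peptide hormone limostatin, had log2 ratios of -2.43, -2.92, -2.57 and -2.74 (mean -2.67 ± 0.13, SE, *q* = 5.4e-06), 6.34-fold lower in CS males. *neo* followed at -2.27, -2.17, -1.65 and -2.98 (mean -2.27 ± 0.20, SE, *q* = 8.5e-05), and *CG18735* at -2.12, -1.33, -2.09 and -2.87 (mean -2.10 ± 0.23, SE, *q* = 0.000183). Higher in CS males were *glob1* (2.38, 1.97, 2.43 and 2.54, mean 2.33 ± 0.14, SE, *q* = 1.1e-05), *Pepck1* (2.15, 2.25, 2.33 and 2.13, mean 2.22 ± 0.12, SE, *q* = 6.9e-06) and *CG11658* (1.97, 1.59, 2.21 and 1.85, mean 1.91 ± 0.14, SE, *q* = 3.1e-05).

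The effect of losing *dsx* was compared between XX and XY animals, whose controls were CS females and CS males. The XX nulls carried the UBI-GFP X chromosome and the XY nulls did not. In this difference that chromosome cannot be told apart from chromosomal sex. Across the 206 elements the 2 effects had a Pearson's correlation of 0.85 and a Spearman's correlation of 0.76 (Pearson's 0.83 over 3187 elements). Of the elements called lower in CS than in the nulls, 43 were shared, 91.5% of the XX and 36.8% of the XY calls, and of those called higher 40 were shared, 65.6% and 75.5%. As a test of the difference, 90 (43.7%) had a higher log2 ratio in the XX comparison, against 36.8% of all 6419 elements, and 16 (7.77%) a lower one, against 11.5%. Among elements measured throughout, 37.9% were called higher and 12% lower. The median difference was 0.24, where the elements measured throughout gave 0.18. With centered arrays 58 were higher and the median difference was 0.16. Without the array labelled XX *dsx* null replicate 4 there were 87 higher and 15 lower, with a median of 0.24. Without XY *dsx* null replicate 3 there were 10 lower. *Cpr72Ea*, a cuticle protein gene, changed sides, with 0.82, 0.17, 0.64 and 0.08 in XX and -0.76, -0.84 and -0.89 in XY animals, a difference of 1.26 ± 0.21 (SE, *q* = 0.00777). *hui* (*CG10200*) was measured by 2 elements. One gave 0.30, 0.63, 0.53 and 0.10 in XX and -0.32, 0.08, -1.27 and -0.86 in XY animals (difference 0.98 ± 0.27, SE, *q* = 0.0263), the other a difference of 0.89 ± 0.26 (SE, *q* = 0.03). *pio*, a zona pellucida domain gene, was lower in the controls of both, between -0.84 and -0.33 in XX and between -1.58 and -1.34 in XY animals (difference 0.88 ± 0.17, SE, *q* = 0.0101). In the other direction the positive ratio was larger in XY animals for *CG11658*, which was 0.43, 0.95, 1.59 and 1.5 in XX animals (difference -0.79 ± 0.26, SE, *q* = 0.0377). *CAH7*, a carbonic anhydrase gene (difference -0.57 ± 0.19, SE, *q* = 0.0393), and *CG4250* (difference -0.45 ± 0.14, SE, *q* = 0.0355) also had every XX array below every XY array. *CG11658* and *CG4250* were not called after arrays were scaled to a common spread.

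Of genes with known roles in oogenesis, 8 were among the 206. Their wild type means lay between -0.13 and 0.34. In the wild type sex difference 4 of 8 were called higher in females and none lower, with a median of 0.15, where 46.2% of all elements were called higher and 26.9% lower. The 4 were *Khc*, the kinesin motor that moves *oskar* RNA in the oocyte (0.34 ± 0.13, SE, *q* = 0.0268), *fl(2)d*, for a splicing factor of *Sxl* RNA (0.31 ± 0.14, SE, *q* = 0.0406), *glo*, for a repressor of *nanos* translation (0.23 ± 0.13, SE, *q* = 0.0625), and *kel*, the actin-crosslinking gene of ring canals (0.20 ± 0.13, SE, *q* = 0.0889). *glo* and *kel* lost their calls with Benjamini-Hochberg adjustment, and *kel* also without Berlin replicates 2 or 4. *Khc* was 0.01, 0.02, 0.75 and 0.67 on the CS arrays, where replicates 3 and 4 were the high ones, and 0.70, 0.13 and 0.14 on 3 Berlin arrays. The values of *tacc*, a spindle gene of eggs and embryos, turned with the dye in CS, at -0.72 and -0.67 and then 0.90 and 0.59, and it was not called.

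In *tud* progeny none of the 8 was called, and their means ran from -0.24 to 0.28. Set against the wild type, *Khc* (difference 0.58 ± 0.20, SE, *q* = 0.053) and *glo* (0.46 ± 0.21, SE, *q* = 0.104) were called higher in the wild type. *Khc* lost its call without *tud* replicate 2, and *glo* without *tud* replicates 3 or 4, with centered arrays or with CS as the only wild type. In the *tra* comparison *Nlp*, a histone chaperone gene (0.30 ± 0.14, SE, *q* = 0.147), and *tacc* (0.32 ± 0.15, SE, *q* = 0.146) were called higher in CS females, and both calls were lost when any 1 array was left out.

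**Figure D3:**
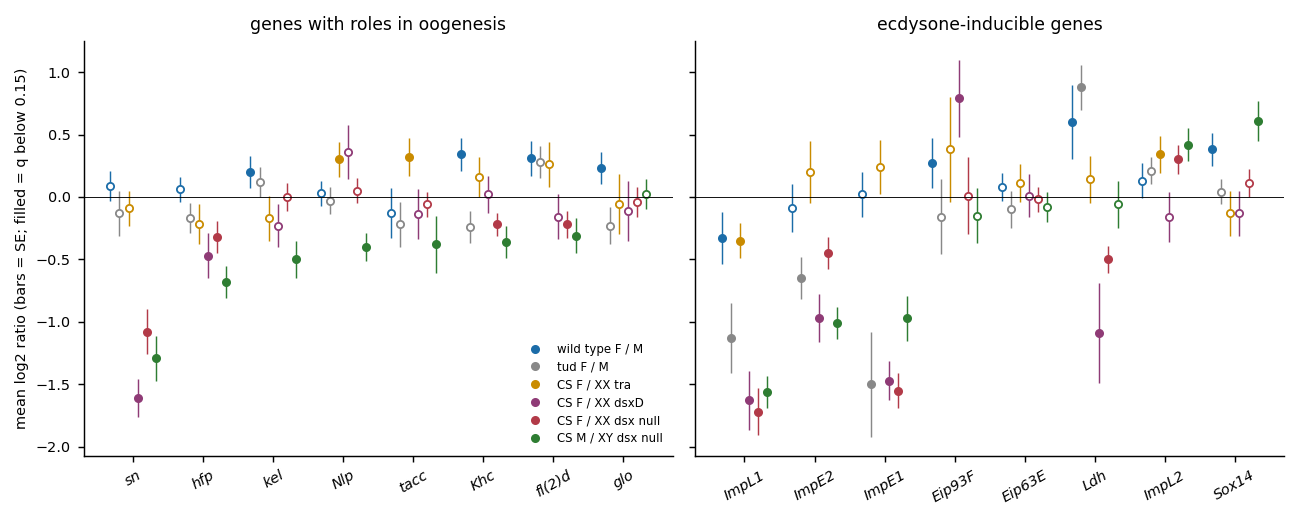
Mean log2 ratio with SE of the 8 genes with roles in oogenesis (left) and the 8 ecdysone-inducible genes (right) in the 6 comparisons, filled where *q* was below 0.15. *sn* lies at -1.61, -1.08 and -1.29 in the *dsxD*, XX *dsx* null and XY *dsx* null comparisons, and *ImpL1* at -1.63, -1.72 and -1.56.

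The *dsx* mutants showed the widest spread of the oogenesis genes. Called lower in CS animals than in mutants were 2 of 8 in the *dsxD*, 4 of 8 in the XX *dsx* null and 7 of 8 in the XY *dsx* null comparison, where 13.4%, 20.2% and 46.7% of all elements and 19.9%, 22.8% and 56.8% of the 206 were called lower. None was called higher in the 3. One gene accounted for the large values. *sn*, for the fascin that bundles actin in nurse cells and in bristles, was -1.71, -1.67, -1.32 and -1.75 in the *dsxD* comparison (mean -1.61 ± 0.15, SE, *q* = 0.000201). It was -0.49, -1.55, -0.91 and -1.37 in XX *dsx* nulls (mean -1.08 ± 0.18, SE, *q* = 0.00517) and -0.95, -1.87, -0.96 and -1.37 in XY *dsx* nulls (mean -1.29 ± 0.18, SE, *q* = 0.000452). By contrast its wild type mean was 0.09 ± 0.12 and its *tra* mean -0.09 ± 0.14, neither called. *hfp*, for a splicing factor needed in ovarian follicles, was also called in all 3, at -0.47 ± 0.18 (*q* = 0.106), -0.32 ± 0.13 (*q* = 0.0785) and -0.68 ± 0.13 (*q* = 0.00163). Its *dsxD* call was lost without replicates 1, 2 or 4 and its XX call without replicate 4. The other genes called lower than in XY *dsx* nulls had means between -0.50 and -0.31, and *glo* alone was not called there (0.02 ± 0.12). In that comparison *tacc* lost its call without replicate 2, and in XX *dsx* nulls *Khc* lost its call without replicates 1 or 4 and *fl(2)d* without replicates 2 or 4. The *dsxD* and XX *dsx* null comparisons share CS females as their control.

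The 8 ecdysone-inducible genes, from the steroid pulses that drive metamorphosis, held larger differences than the oogenesis genes. In the wild type 3 were called higher in females and 1 lower, where 46.2% and 26.9% of all elements were. In *tud* progeny 1 was called higher and 3 lower, against 7.68% and 7.5% of all elements and 4.37% and 18.4% of the 206. *ImpE1*, *ImpE2* and *ImpL1*, all found as ecdysone-inducible genes of imaginal discs, were the 3 lower in *tud* females. *ImpE2* had -0.91, -1.08, -0.31 and -0.31 (mean -0.65 ± 0.17, SE, *q* = 0.0721), and *ImpL1* had -1.62, -1.96, -0.62 and -0.31 (mean -1.13 ± 0.28, SE, *q* = 0.0709). For both the arrays with females in Cy5 were the lower ones, and both calls were lost without *tud* replicate 1, that of *ImpE2* also without replicate 2. *ImpL1* was also called lower in wild type females (-0.33 ± 0.21, SE, *q* = 0.0833), with 3 arrays between -1.37 and -0.89 while the others lay between -0.05 and 0.41, and it was not called without Berlin replicate 1.

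Against the *dsx* mutants these same 3 genes were lower in CS animals. *ImpE1* had a mean of -1.47 ± 0.16 in the *dsxD*, -1.55 ± 0.14 in the XX *dsx* null and -0.97 ± 0.18 against XY *dsx* nulls. It was below 0 on all 12 arrays. The paper lists *ImpE1* as male-biased, with a larger fold difference in the *dsxD* comparison than the 2.77-fold found here. The wild type mean of the element described here was 0.015 ± 0.177, not called. Whether the paper's value came from another element was not tested. *ImpL1* had -1.63 ± 0.24, -1.72 ± 0.19 and -1.56 ± 0.13, and *ImpE2* had -0.97 ± 0.19, -0.45 ± 0.13 and -1.01 ± 0.13, also below 0 on all 12 arrays each. In the *tra* comparison the values were 0.24 ± 0.22 for *ImpE1* and 0.20 ± 0.25 for *ImpE2*, neither called, and -0.35 ± 0.14 for *ImpL1* (*q* = 0.117), whose call was lost without any 1 array. The remaining ecdysone-inducible genes did not follow this pattern. *ImpL2*, for a secreted binding protein of insulin-like peptides, was called higher in CS animals in the *tra*, XX *dsx* null and XY *dsx* null comparisons, at 0.34 ± 0.15, 0.30 ± 0.12 and 0.42 ± 0.13, but its *tra* call was lost without replicate 1, 3 or 4 and its XX *dsx* null call without replicate 3 or 4. *Sox14*, an ecdysone-induced transcription factor gene, was higher in wild type females (0.38 ± 0.13, *q* = 0.0179) and in CS males over XY *dsx* nulls (0.61 ± 0.16, *q* = 0.00517). *Eip93F*, for a transcription factor of larval tissue death, was lower on replicates 1 and 2 than on replicates 3 and 4 in all 7 comparisons. In the *dsxD* comparison it was 0.30, -0.19, 1.89 and 1.18 and in the *tra* comparison -0.47, -0.90, 1.20 and 1.68. *Ldh* was called lower in CS females than in *dsxD* pseudomales (-1.09 ± 0.40, *q* = 0.0872, lost without replicate 2) and XX *dsx* nulls (-0.50 ± 0.11, *q* = 0.0142). *Eip63E*, for a cyclin-dependent kinase, was called in no comparison, with means between -0.10 and 0.11.

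A group put together after the values were seen holds the 5 zona pellucida domain genes among the 206, *neo*, *nyo*, *mey*, *pio* and *qsm*. Their proteins lie in the apical extracellular matrix of epithelia, where they shape cells and cuticle, and a related domain makes up egg coats in vertebrates. *neo*, *nyo*, *mey* and *pio* were called lower in CS animals than in all 3 kinds of *dsx* mutant and lower in *tud* females. *nyo* was -0.11, -1.80, -2.10 and -2.52 in the *dsxD*, -0.87, -2.07, -1.73 and -2.20 in the XX *dsx* null and -1.75, -1.30, -1.61 and -2.07 in the XY *dsx* null comparison. In *tud* progeny it was -1.42, -1.81, -1.46 and -0.77 (mean -1.37 ± 0.18, SE, *q* = 0.0199), with *mey* at -1.31 ± 0.19 and *neo* at -1.05 ± 0.24. *Np*, which encodes a membrane serine protease, was set beside them after the values were seen and had means of -1.30 ± 0.17 in *tud* progeny, -1.59 ± 0.22 in the *dsxD*, -1.53 ± 0.17 in the XX *dsx* null and -1.58 ± 0.25 in the XY *dsx* null comparison. *qsm* was at 0.20 ± 0.18 in the *dsxD* and 0.18 ± 0.13 in the XX *dsx* null comparison, neither called, and at -0.31 ± 0.16 (*q* = 0.0452) in XY *dsx* nulls. In wild type pupae *nyo*, *mey* and *pio* were called lower in females and *qsm* higher, with means from -0.45 to 0.41. All 5 were called higher in the wild type than the *tud* sex difference, by 0.69 to 0.98.

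**Figure D4:**
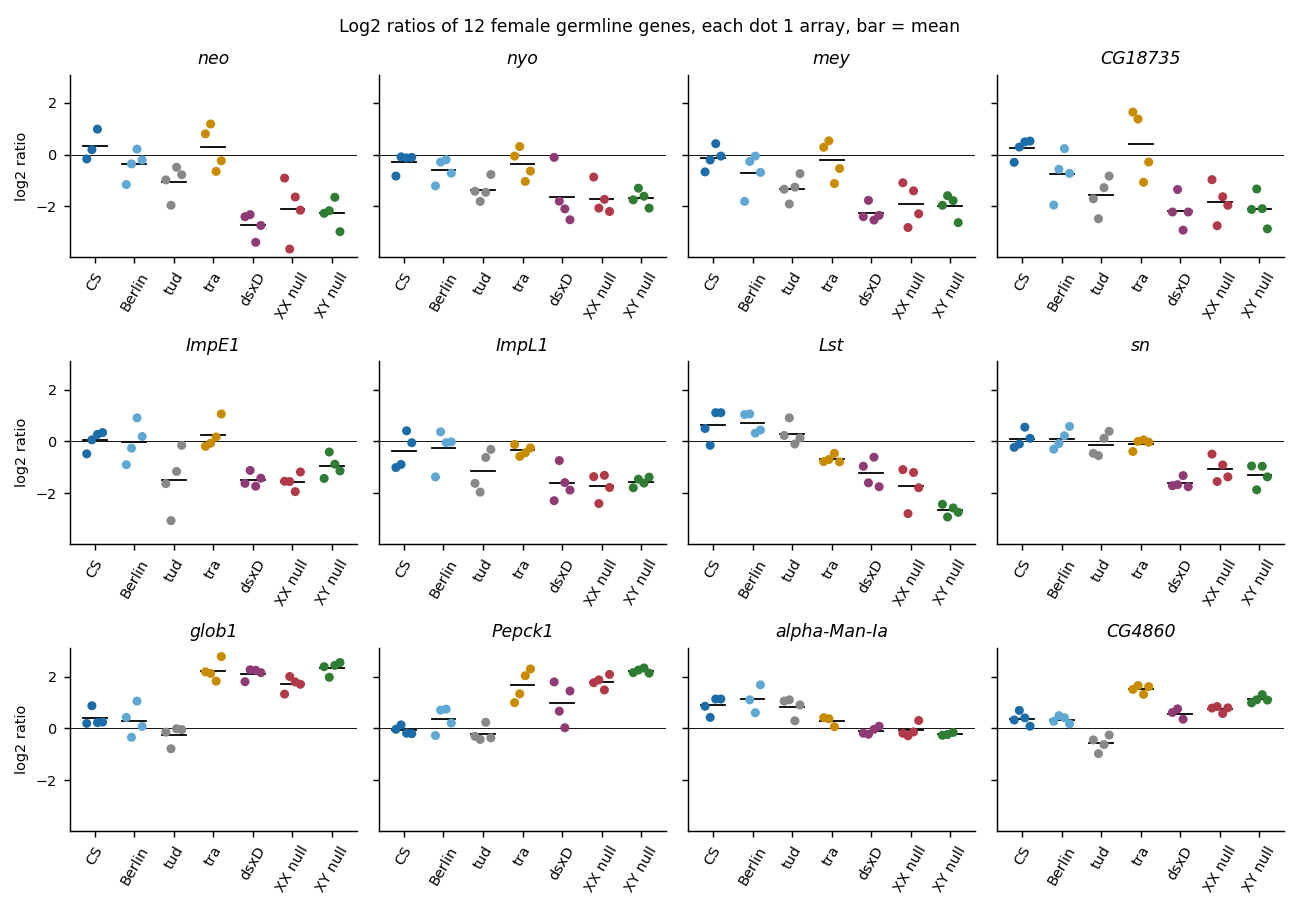
Log2 ratio of 12 female germline genes on each array (dots) with the mean (bar) in the 7 comparisons. *neo*, *nyo*, *mey*, *CG18735*, *ImpE1*, *ImpL1*, *Lst* and *sn* lie below 0 on every array of the *dsxD*, XX *dsx* null and XY *dsx* null comparisons, and *glob1* lies at 1.32 or above on every mutant array.

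The *tra* arrays split by dye for the same genes. *CG18735* was 1.64 and 1.37 on *tra* replicates 1 and 2 and -1.07 and -0.29 on replicates 3 and 4, *neo* was 0.80 and 1.18 and then -0.65 and -0.24, and *Np* was 0.74 and 0.83 and then -1.01 and -0.18. None of the 3 was called in the *tra* comparison. Their differences in the *dsx* mutant and *tud* comparisons had 1 sign in both dye orientations.

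Of the 5 genes of metabolism, *glob1* and *Pepck1* stood apart, with positive values relative to all 4 mutants. *glob1* was 1.32 or higher on all 16 mutant arrays, and its sex difference was small, at 0.34 ± 0.15 in the wild type (*q* = 0.037) and -0.25 ± 0.16 in *tud* progeny, where it was not called. *Pepck1* had 0.99, 1.33, 2.03 and 2.29 in the *tra* comparison (mean 1.66 ± 0.23, *q* = 0.00602) and was not called between the sexes. *CG4860*, of no list, was likewise above 0 on all 15 mutant arrays that measured it, from 0.35 to 1.65. Opposite to these, *Lst* was below 0 on all 16 mutant arrays, with means of -0.68 ± 0.13 in the *tra*, -1.23 ± 0.21 in the *dsxD* and -1.72 ± 0.27 in the XX *dsx* null comparison, while it was higher in wild type females (0.68 ± 0.16, *q* = 0.00284). The effect of losing *dsx* differed between XX and XY animals for *glob1* (-0.63 ± 0.19, *q* = 0.03), *Pepck1* (-0.42 ± 0.16, *q* = 0.05) and *Lst* (0.95 ± 0.33, *q* = 0.043). The *tra*, *dsxD* and XX *dsx* null comparisons share CS females, and the UBI-GFP X chromosome of these mutants cannot be told apart from the mutation. Strain background cannot be told apart from the mutation in any of the 4 mutants.

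Several of the 11 stress genes varied widely between arrays of one comparison. *Hsp70Ab* and *Hsp70Ba*, near-identical copies of the heat shock chaperone gene that an array element may not separate, were 4.00 and 4.02 on *dsxD* replicate 1 and 3.71 and 4.02 on replicate 4, but -3.83 and -3.82 on replicate 2 and -1.63 and -1.58 on replicate 3. On Berlin arrays *Hsp70Ab* was -1.47, 3.37, 5.09 and 0.85. *stv*, of the stress list, was -0.84, 2.31, 2.33 and 0.10 in Berlin and 0.69, -1.76, -0.23 and 0.48 on the *dsxD* arrays, and *Hsp67Ba* was -0.42, 0.51, 1.36 and 0.30 and then 0.24, -0.80, -0.47 and 0.83. *CG9747* and *CG12998* moved with them, at 2.40, -2.70, -1.0 and 2.42 and at 1.20, -3.04, -1.0 and 1.13 on the *dsxD* arrays. The *dsxD* arrays 1 and 4 had a correlation of 0.86 across the female germline genes and arrays 1 and 2, of the same dye orientation, one of 0.04. These genes were chosen after their values were seen, and the part of this split in other results was not tested. Of the other stress genes, *GstD5*, a glutathione transferase gene, was higher in CS males than XY *dsx* nulls (0.37, 1.18, 1.68 and 2.11, mean 1.34 ± 0.26, *q* = 0.00174) and between -0.18 and 0.46 in XX animals (difference -1.24 ± 0.32, *q* = 0.0242). *CG4456*, from the stress list, was 1.70, 1.02, 1.02 and 0.86 in the *tra* comparison (mean 1.15 ± 0.17, *q* = 0.00748).

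The remaining lists gave mostly small differences. Of 6 signaling genes, 5 were called higher in the wild type than the *tud* sex difference, against 20% of all elements and 36.9% of the 206. The study's list was chosen for higher levels in wild type than *tud* females, so this direction is not independent of the choice. *fng*, the Notch-modifying glycosyltransferase gene, was at 0.61 and *pk*, of planar cell polarity, at 0.47. All 4 cuticle genes, *Cpr72Ea* and *pio* among them, were called higher in the XX than the XY *dsx* null comparison, by 0.35 to 1.26, where 36.8% of all elements and 43.7% of the 206 were. Of 9 neural genes, none was called in the *tra* comparison and 8 of 9 were called in XY *dsx* nulls, 3 higher and 5 lower in CS males, against 34.2% and 46.7% of all elements and 25.7% and 56.8% of the 206. *Obp56a*, an odorant-binding protein gene, was the lowest of these at -1.11, and it was -1.08 in *tud* progeny. Of 9 chromatin and RNA genes, 6 were called lower in CS males than in XY *dsx* nulls and none higher, against 46.7% of all elements and 56.8% of the 206 called lower. In the *tra* comparison 4 were called higher in CS females and none lower, led by the chromatin decondensation gene *Df31* at 0.92. There 13.3% of all elements and 25.7% of the 206 were called higher.

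By chromosome arm, the X held 34 elements, arms 3R, 2R, 3L and 2L held 54, 44, 44 and 28, and chromosome 4 held 1, with 1 element left without an arm in the gene table. X-linked female germline genes had a median of 0.22 in the wild type sex difference, with 21 of 34 called higher, and autosomal ones 0.14, with 84 of 171 called higher. Over all elements that could be named, the medians were 0.21 for the X (376 elements) and 0.02 for autosomes (1812), with 223 and 711 of them called higher. Elements could be named only from the study's gene lists. This set therefore holds the male germline list, the female germline genes themselves and other genes the study chose for sex differences, and is not a neutral sample of the array. In *tud* progeny both X-linked and autosomal female germline genes had a median of -0.12. In the XY *dsx* null comparison 23 of 34 X-linked and 93 of 171 autosomal genes were called lower in CS males, as were 165 of 372 X-linked and 583 of 1818 autosomal elements that could be named. The difference between XX and XY *dsx* nulls was called higher for 19 of 34 X-linked and 70 of 171 autosomal genes, and for 119 of 322 X-linked and 366 of 1474 autosomal elements that could be named.

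Some of the 206 were also in the sets the study drew from these same arrays, 15 in its somatic sex set and 9 in its set downstream of *dsx*, and none in its set downstream of *tra*. Since these sets were chosen on these values, their directions are a description. Of the 9, 7 were lower in CS females than in *dsxD* pseudomales and 2 higher, with a median of -1.17.

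Both genes with 2 elements allowed a check within the array. The 2 elements of *hui* had a correlation of 0.85 over 26 arrays and a median absolute difference of 0.21 in the log2 ratio. Those of *CG17754* had a correlation of 0.46 over 26 arrays and a median absolute difference of 0.56.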

How the data were processed

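The genes described and the lists used were chosen with earlier results of these data known. Labeled cDNA of both genotypes, from 30 µg of total RNA each, was hybridized to spotted oligonucleotide arrays. The authors filtered elements on brightness over background and used LIMMA's global loess within arrays, and the deposited values are the resulting log2 ratios with dye-swapped arrays already turned. How background was corrected, and whether arrays were scaled to each other, is not given in the sources used here. The direction of the ratios was taken from signs in the study's gene lists (58% to 100% of signs the same, lowest on CS replicate 3) and from *roX1* on arrays that compared females with males. Control elements (32) were left out. The intensities behind the ratios are not used here, so precision rests on the number of arrays.

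limma 3.58.1 in R 4.3.3 gave moderated two-sided tests against 0, or of the difference between comparisons, over every element with values on at least 2 of 4 arrays (4 of 8 for the wild type). Storey *q* values were computed over all elements tested, with lambda from 0.05 to 0.95 in steps of 0.05, and 0.15 was the threshold. The share of true nulls was estimated as 33% (wild type), 29% (XY *dsx* nulls) and 44.2% to 72.8% elsewhere. In simulated data with 200 elements changed by 1 on the log2 scale, between 42% (CS minus Berlin, 8153 elements) and 86.5% (wild type, 9901 elements) were recovered, and 8.9% to 17.2% of calls were false. All other simulated elements were unchanged, and the noise was independent between arrays, without dye effects. These shares therefore do not carry over to the counts above, where far fewer true nulls were estimated.

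Named genes are the 3 most positive and 3 most negative called members of each of 9 results with 1 sign on every array (or no overlap between comparisons), and all members of the oogenesis and ecdysone lists. Genes named elsewhere, the zona pellucida group among them, were chosen after their values were seen. Elements were named from the study's gene lists, which gave names to 2344 elements. Symbols and arms are those of a RefSeq table (assembly Release 6 plus ISO1 MT), which held all 206. The alternatives tried were a dye term, Benjamini-Hochberg adjustment, centering, scaling, an unmoderated *t*-test, at least 3 of 4 arrays, replicate blocks, single strains and leaving out each array. Arrays of the time course were not analysed here. Figures were drawn with matplotlib 3.10.9 in Python 3.11.15.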

Additional observations from a re-analysis of the deposited data

Results flagged for a closer look

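Single arrays stood apart from the rest of their group in 3 of 116 groups of 4 arrays examined, by a gap large for the range of the group, where chance alone would give about 1 in 20. *nyo* was -0.83 on CS replicate 1 and between -0.13 and -0.09 on the others. *ImpL2* was 0.14 on XY *dsx* null replicate 3 and between 0.49 and 0.55 on the others. The median of the female germline genes was -0.02 on XX *dsx* null replicate 4 and between 0.03 and 0.04 on the others.

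The sex difference in the log2 ratio differed between the wild type and *tud* progeny, by the test of the difference, for *Fbxl7* (1.04), *Cad87A* (0.94), *CG4860* (0.94), *ImpE1* (1.52), *ImpL1* (0.80), *Khc* (0.58), *ImpE2* (0.57), *glo* (0.46) and *Sox14* (0.34), each higher in the wild type. The calls of *ImpE2*, *Sox14* and *ImpL1* were lost under 12, 12 and 10 of 21 alternatives. The effect of losing *dsx* differed between XX and XY animals for *Cpr72Ea* (1.26), 1 element of *hui* (0.98), *pio* (0.88), *ImpE2* (0.57), *kel* (0.50), *Nlp* (0.45) and *hfp* (0.36), each with the higher ratio in XX animals. It differed in the other direction for *CG11658* (-0.79), *ImpE1* (-0.58), *CAH7* (-0.57), *Sox14* (-0.50), *CG4250* (-0.45) and *Ldh* (-0.44). The calls of *hfp* and *Ldh* were lost under 5 and 6 of 15 alternatives. Between the strains, CS minus Berlin, *CG12998* (-1.48) and *CG10570* (-1.14) differed.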

How the results depend on the processing

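Direction was followed for the genes named by the rule above, in 101 called pairs of gene and result, and none of these changed direction. The other called elements were not checked in this way. The median in the *dsxD* comparison crossed 0 only without *dsxD* replicate 2. Counts are of the 206 female germline elements called at the *q* threshold. With Benjamini-Hochberg adjustment 55 were higher and 6 lower in wild type females, 5 were higher in *tud* females, 28 were higher in the *tra* comparison, 31 lower in XX and 31 higher in XY *dsx* null comparisons, 40 higher and 0 lower for wild type minus *tud*, 46 higher and 9 lower for XX minus XY *dsx* null, and 0 lower for CS minus Berlin. A dye term gave 31 higher and 91 lower in *tud*, 95 higher and 37 lower in *tra*, 35 higher in *dsxD*, 3 lower for wild type minus *tud*, and 1 higher and 4 lower for CS minus Berlin. Centered arrays gave 26 lower in the wild type, 43 higher and 5 lower for wild type minus *tud*, 58 higher for XX minus XY with a median of 0.158, 0 lower for CS minus Berlin, and a median of -0.108 in XY *dsx* nulls. Scaled arrays gave 4 lower for wild type minus *tud* and 0 for CS minus Berlin. The unmoderated *t*-test gave 0 higher and 0 lower in *tud*, 27 higher and 4 lower in *tra*, 2 lower for wild type minus *tud* and 0 for CS minus Berlin. Requiring 3 of 4 arrays gave 2 and 1 lower for these 2 differences. CS alone gave 44 higher and 5 lower against *tud*, and Berlin alone 2 lower.

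Leaving out each array in turn gave 2 to 10 higher and 8 to 29 lower in *tud*, 15 to 41 higher and 6 to 12 lower in *tra*, 14 to 28 higher in *dsxD* with medians from -0.102 to 0.023, 42 to 88 higher and 0 to 3 lower for wild type minus *tud*, 10 to 19 lower for XX minus XY, and 0 to 2 higher and 0 to 13 lower for CS minus Berlin. Same-numbered arrays correlated in their deviations by 0.01 to 0.54, and the numbers also mark the dye orientation, so they were not taken as pairs. With the replicate block there were 93 higher and 1 lower for wild type minus *tud*, 96 higher and 16 lower for XX minus XY, and 0 lower for CS minus Berlin. The cause of these changes was not tested.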
